A study of Mus musculus with 2 samples.

Results

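The genes described here were 5 fibroblast growth factor (FGF) ligands, Fgf1, Fgf2, Fgf7, Fgf10 and Fgf18, and 4 FGF receptors, Fgfr1 to Fgfr4. They were taken by gene symbol, each matched 1 identifier, and they are 9 of the 32285 genes in the count matrices. The study asked which lung cells descend from transplanted cells and which from the host. Donor cells were sorted as CD45- and td-tomato positive from the lungs of C57Bl mice that had received a suspension of TdTom cells 6 months earlier. Recipient cells were the CD45- cells of the same lungs without td-tomato, the C57Bl host compartment. Cells of 3 chimeric lungs were pooled before sorting, so each compartment is 1 library and no difference between them has a replicate check. The strain and age of the donors, the age of the hosts and any conditioning before transplantation are not given in the sources used here. CD45- sorting removes leukocytes from both libraries, and FGF transcripts of leukocytes were not analysed here. The sort was not checked against the reporter here.

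FGF ligands are secreted proteins that bind receptor tyrosine kinases on neighbouring cells, with heparan sulfate chains as a co-receptor for the paracrine members. Fgf7 and Fgf10 come from lung mesenchyme and act on the IIIb splice form of Fgfr2 in epithelium, and Fgf10 is needed for lung branching in the mouse embryo. Fgf18 is a mesenchymal ligand of lung growth and alveolus formation, and mouse Fgfr3 and Fgfr4 together are needed for normal alveoli. Fgf1 and Fgf2 lack a classical signal peptide and bind several receptors.

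The donor library held 6319 barcodes and 37997269 unique molecular identifiers (UMIs, 1 per captured transcript), and the recipient library 3784 barcodes and 26201315 UMIs. Of the barcodes, 816 occurred in both libraries, and in 728 of these the donor copy was more than 5-fold smaller. The smaller copy was dropped, and whether such copies held molecules of the other library was not tested. Most dropped donor copies were in no cell type gate after filtering, but 32 were in the alveolar type 1 gate, whose levels are also given with the copies kept. After filtering, 4582 donor cells (median 6089 UMIs) and 3198 recipient cells (median 6384.5 UMIs) remained. Each cell was assigned to 1 of 17 types by counting distinct marker genes with a UMI, 6 markers per type, and 94.5% of donor and 92.2% of recipient cells were assigned. Levels are UMIs summed over the cells of a type and scaled to counts per 1000000 UMIs of that type (CPM), for types with at least 20 cells, with exact Poisson 95% intervals that cover counting error only. Each such type had UMIs of every usable defining marker of its own, except donor arterial cells, which had 5 of 6. Cells were assigned by these same markers, so their presence is no independent check on the type names. In donor arterial cells the arterial markers summed to 2183 CPM, against 3355 CPM for venous and 4153 CPM for general capillary markers.

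The 2 sorts held different cells. Donor cells were 2631 general capillary cells, 1529 aerocytes (the large capillary cells that line the gas exchange surface), 68 venous cells, 30 arterial cells, 29 pericytes and 24 alveolar type 1 cells. Recipient cells were 449 general capillary cells, 630 aerocytes, 76 venous cells, 69 lymphatic cells, 164 alveolar type 1 cells, 501 pericytes, 764 alveolar fibroblasts, 93 adventitial fibroblasts and 137 myofibroblasts. Donor fibroblasts numbered 4 alveolar and 3 adventitial cells, or 9 and 8 before copies of shared barcodes were dropped, so mesenchymal ligands were read in the recipient library.

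Among the 9 genes, Fgf2, Fgf7 and Fgf10 were highest in the same fibroblast gates, Fgf18 in myofibroblasts and Fgfr4 in alveolar fibroblasts. The promoters of these 5 genes are shown so that members with like and unlike patterns can be set side by side. They are RefSeq sequences on GRCm38.p6 from 250 bases before to 50 bases after the start, each read 5′ to 3′ on the strand of its gene, and they were chosen after the levels were seen. Capitals mark the letters of 3 motifs searched on both strands. The TATA box was searched as TATAAA and the CCAAT box by the letters of its name. The GC box was searched as GGGCGG, which reads CCGCCC when it lies on the opposite strand. Fgf2 lies at chr3:37348403-37348702 on the plus strand, Fgf7 at chr2:126034408-126034707 on the plus strand and Fgf10 at chr13:118714449-118714748 on the plus strand. The start used for Fgf2 lies downstream of its RefSeq gene start at 37348477, so most of that window is inside the gene record. Fgf18 lies at chr11:33147351-33147650 on the minus strand and Fgfr4 at chr13:55152568-55152867 on the plus strand.
Fgf2: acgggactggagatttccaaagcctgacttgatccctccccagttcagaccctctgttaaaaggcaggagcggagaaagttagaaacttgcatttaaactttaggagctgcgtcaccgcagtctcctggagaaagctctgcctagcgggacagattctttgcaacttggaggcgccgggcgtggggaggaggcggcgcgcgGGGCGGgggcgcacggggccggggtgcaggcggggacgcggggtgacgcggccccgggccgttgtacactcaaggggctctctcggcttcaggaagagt
Fgf7: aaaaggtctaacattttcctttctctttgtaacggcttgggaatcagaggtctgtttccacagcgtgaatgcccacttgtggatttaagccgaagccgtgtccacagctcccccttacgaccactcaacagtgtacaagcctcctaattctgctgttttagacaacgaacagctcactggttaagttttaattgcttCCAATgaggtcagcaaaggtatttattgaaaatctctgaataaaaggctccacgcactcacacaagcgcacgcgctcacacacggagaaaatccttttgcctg
Fgf10: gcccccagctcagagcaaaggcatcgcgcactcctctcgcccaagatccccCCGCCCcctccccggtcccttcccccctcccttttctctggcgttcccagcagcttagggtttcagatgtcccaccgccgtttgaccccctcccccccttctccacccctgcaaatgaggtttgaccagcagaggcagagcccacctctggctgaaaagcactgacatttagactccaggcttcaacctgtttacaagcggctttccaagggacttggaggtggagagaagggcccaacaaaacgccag
Fgf18: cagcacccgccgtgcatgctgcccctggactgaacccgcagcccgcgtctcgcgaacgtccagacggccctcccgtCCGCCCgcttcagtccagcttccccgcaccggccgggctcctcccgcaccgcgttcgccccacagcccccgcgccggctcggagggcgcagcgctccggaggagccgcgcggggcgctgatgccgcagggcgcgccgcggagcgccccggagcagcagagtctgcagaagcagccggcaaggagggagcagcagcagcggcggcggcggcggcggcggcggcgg
Fgfr4: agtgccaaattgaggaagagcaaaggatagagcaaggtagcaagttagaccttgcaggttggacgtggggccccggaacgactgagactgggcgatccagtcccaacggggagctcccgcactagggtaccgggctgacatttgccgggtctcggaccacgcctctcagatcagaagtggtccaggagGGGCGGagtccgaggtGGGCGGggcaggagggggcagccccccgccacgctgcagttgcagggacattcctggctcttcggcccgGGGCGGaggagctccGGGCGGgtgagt
Only the Fgf7 window held a CCAAT box among these 5, and none held a TATA box. A GC box was in the windows of Fgf2, Fgf10, Fgf18 and Fgfr4, and Fgfr4 had 4 of them. Of all 32851 RefSeq promoters of this length, 37.4% held a CCAAT box, 35.7% a GC box and 13.6% a TATA box. The GC content was 45.7% in Fgf7, against 60.7% to 78.7% in the other 4 and a median of 52.7% over all promoters. A match of letters is a description of these windows and says nothing of a factor's binding.

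On GRCm38.p6 the RefSeq genes lie at chr3:37348477-37410106 (Fgf2), chr2:126034658-126091185 (Fgf7), chr13:118714699-118792573 (Fgf10) and chr11:33116970-33147400 (Fgf18), with Fgf1 on the minus strand of chromosome 18. The receptors lie at chr8:25518759-25575718 (Fgfr1), chr7:130162451-130266808 (Fgfr2), chr5:33721724-33737068 (Fgfr3) and chr13:55152818-55168759 (Fgfr4). All 9 are protein-coding. The GENCODE M21 record of Fgfr2 runs on to 133123350, across Ate1 and other genes of the same strand, so reads of that stretch could not be assigned to Fgfr2 alone if that record was used in counting.

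Fgf1 was highest in alveolar type 1 cells, followed by aerocytes, in both libraries. In donor cells it stood at 518 CPM in alveolar type 1 cells (93 UMIs), 291 in aerocytes (4008 UMIs), 35.9 in general capillary cells, 12.8 in venous cells, 10.4 in arterial cells and 6.52 in pericytes. In the donor alveolar type 1 gate 43.0% of Fgf1 UMIs came from the 3 highest of 24 cells, so that level rests on few cells. In recipient cells it stood at 500 CPM in alveolar type 1 cells (1217 UMIs), 299 in aerocytes (1439 UMIs), 34.5 in general capillary cells, 13.9 in venous cells, 12.5 in alveolar fibroblasts and 11.5 in pericytes. The remaining recipient types, lymphatic cells, adventitial fibroblasts and myofibroblasts, had 7.57, 6.59 and 5.43 CPM. The first 4 places were in the same order in both libraries, and below general capillary cells no neighbour differed from the next beyond its counting interval. Aerocytes exceeded general capillary cells 8.11-fold (95% counting interval 7.41 to 8.89) in the donor library and 8.65-fold (7.01 to 10.8) in the recipient library. For shares at equal depth, cells with at least 3000 UMIs were thinned to 3000 and cells with fewer were left out. Of the thinned cells, 55.6% of donor and 52.3% of recipient aerocytes had an Fgf1 UMI, against 0.730% of recipient myofibroblasts and 2.67% of recipient pericytes. Summed pan-epithelial markers in aerocytes were 9.50 CPM in donor and 13.5 CPM in recipient cells, against 4174 CPM in donor and 3806 CPM in recipient alveolar type 1 cells. The 6 alveolar type 1 markers, all above 0, summed to 2339 CPM in donor and 2331 CPM in recipient aerocytes, and to 464 CPM in donor and 505 CPM in recipient general capillary cells, the same order as Fgf1. Hopx made up 2307 CPM in donor and 2265 CPM in recipient aerocytes. Ager, the highest of the other 5, was 19.95 CPM in donor and 48.4 CPM in recipient aerocytes, and 21.0 CPM in donor and 62.3 CPM in recipient general capillary cells, against 19367 CPM in donor and 19304 CPM in recipient alveolar type 1 cells.

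Fgf7, the keratinocyte growth factor, was a fibroblast transcript. In recipient cells it was 220 CPM in myofibroblasts (191 to 253), 192 in alveolar fibroblasts (180 to 204) and 106 in adventitial fibroblasts (87.6 to 128). All 6 other recipient types were at or below 2.52 CPM, and alveolar type 1 cells had 0 UMIs, with an upper interval limit of 1.51 CPM. Myofibroblasts and alveolar fibroblasts did not differ beyond counting error, whereas alveolar fibroblasts exceeded adventitial fibroblasts 1.80-fold (1.48 to 2.21). At 3000 UMIs per cell, 41.1% of alveolar fibroblasts, 41.6% of myofibroblasts and 29.7% of adventitial fibroblasts had an Fgf7 UMI, against 0.222% of pericytes. The gene runs against Fam227b on the opposite strand over 56528 bases, but that gene had 1 UMI among donor and 0 among recipient cells.

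Fgf10, the ligand of branching morphogenesis, followed the same cells at a lower count. It was 57.7 CPM in alveolar fibroblasts (309 UMIs), 41.3 in myofibroblasts (38 UMIs) and 17.9 in adventitial fibroblasts (19 UMIs) of the recipient library. Pericytes and aerocytes had 2 UMIs and 1 UMI, and alveolar type 1, general capillary, venous and lymphatic cells had none. Alveolar fibroblasts exceeded adventitial fibroblasts 3.23-fold (2.03 to 5.43), and their excess over myofibroblasts of 1.40-fold (0.995 to 2.01) was within counting error. The kept donor cells of all types held 1 Fgf10 UMI.

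Fgf2, basic FGF, had the same 3 fibroblast types on top. It was 55.4 CPM in myofibroblasts (41.2 to 72.8), 50.8 in alveolar fibroblasts (44.9 to 57.2) and 28.2 in adventitial fibroblasts (19.0 to 40.3), and 4.99 CPM or less in the other recipient types with at least 20 cells. Schwann cells, too few for that rule, held 5 UMIs in 15 recipient cells (69.8 CPM, 22.7 to 163). In adventitial fibroblasts 43.3% of its UMIs came from the 3 highest cells, so that level rests on few cells. General capillary cells had 0.531 CPM in the donor and 1.5 CPM in the recipient library. Nudt6 lies on the opposite strand across 5199 bases of Fgf2 and had 298 donor and 162 recipient UMIs. Whether strand was used in counting is not given in the sources used here.

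Fgf18 set myofibroblasts apart from the other stromal cells. It was 362 CPM in recipient myofibroblasts (333 UMIs), 59.9 in alveolar type 1 cells (146 UMIs), 10.4 in adventitial fibroblasts and 1.49 in alveolar fibroblasts (8 UMIs). The 5 other recipient types were at or below 3.08 CPM. Myofibroblasts exceeded alveolar type 1 cells 6.03-fold (4.95 to 7.38) and alveolar fibroblasts 242-fold (122 to 566). A UMI was seen in 56.2% of myofibroblasts at equal depth, against 0.417% of alveolar fibroblasts and 0 of 450 pericytes. Donor alveolar type 1 cells held 8 UMIs, or 44.5 CPM (19.2 to 87.7), and copies of shared barcodes, if kept, gave 57.7 CPM over 56 cells.

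**Figure D1:**
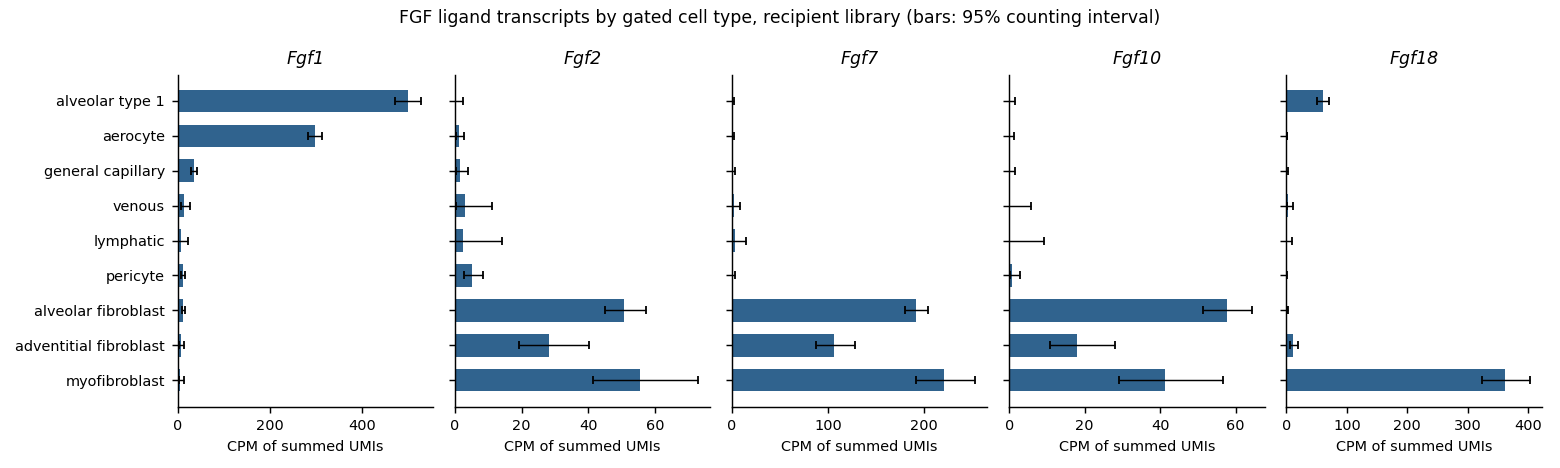
Level of each ligand in CPM of summed UMIs (x axis, linear, own scale per gene) by gated cell type of the recipient library, with exact Poisson 95% intervals as error bars. Fgf1 peaks in alveolar type 1 cells at 500 CPM and aerocytes at 299 CPM, Fgf2, Fgf7 and Fgf10 lie in the 3 fibroblast types, and Fgf18 peaks in myofibroblasts at 362 CPM.

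The receptors divided the same types differently. Fgfr1, the broadly used mesenchymal receptor, was 281 CPM in adventitial fibroblasts (250 to 315), 159 in lymphatic cells (122 to 203), 140 in alveolar fibroblasts (130 to 150) and 108 in myofibroblasts (87.4 to 131) of the recipient library. Aerocytes had 24.7, venous cells 13.9, pericytes 4.99, general capillary cells 3.75 and alveolar type 1 cells 0.821 CPM. Lymphatic cells stood 11.5-fold (5.67 to 26.2) over venous cells, the other endothelial type outside the capillaries at this size. In the donor library Fgfr1 was 30.5 CPM in aerocytes, 10.4 in arterial cells, 6.52 in pericytes, 6.40 in venous cells and 1.20 in general capillary cells, and alveolar type 1 cells had 0 UMIs. The aerocyte level exceeded that of general capillary cells 25.5-fold (15.9 to 43.4) in donor and 6.58-fold (3.46 to 14.1) in recipient cells. With free RNA subtracted by the median marker, the folds were 114 in donor and 12.3 in recipient cells over general capillary levels of 0.275 CPM in donor and 1.92 CPM in recipient cells.

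Fgfr2, the receptor of Fgf7 and Fgf10 in its IIIb form, was 78.2 CPM in myofibroblasts (61.2 to 98.5) and 71.0 in alveolar type 1 cells (60.8 to 82.4) of the recipient library. Those 2 levels did not differ beyond counting error. Aerocytes had 22.2, adventitial fibroblasts 13.2, general capillary cells 9.38 and alveolar fibroblasts 6.53 CPM, and venous cells, pericytes and lymphatic cells 1.54 or less. Donor alveolar type 1 cells had 66.8, aerocytes 20.5, general capillary cells 13.7 and venous cells 9.59 CPM, with no UMI in arterial cells or pericytes. Alveolar type 2 cells, too few for the rule of 20 cells, held 33 UMIs in 4 donor cells (284 CPM, 196 to 399) and 81 UMIs in 19 recipient cells (214 CPM, 170 to 266). Counts per gene cannot tell apart the IIIb and IIIc splice forms in epithelial cells and myofibroblasts.

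Fgfr3 was highest in aerocytes, and in recipient cells next in alveolar fibroblasts. In donor cells it was 195 CPM in aerocytes (2694 UMIs), 72.9 in arterial, 38.4 in venous, 34.9 in general capillary and 16.7 in alveolar type 1 cells, and 6.52 in pericytes. In recipient cells it was 199 CPM in aerocytes (957 UMIs), 137 in alveolar fibroblasts (733 UMIs), 61.2 in adventitial fibroblasts, 49.3 in venous cells, 26.6 in general capillary cells, 23.4 in alveolar type 1 cells, 14.2 in pericytes, 10.1 in lymphatic cells and 2.17 in myofibroblasts. Aerocytes exceeded general capillary cells 5.60-fold (5.09 to 6.16) in donor and 7.46-fold (5.86 to 9.63) in recipient cells. Alveolar fibroblasts exceeded myofibroblasts 63.0-fold (17.4 to 521), with 2 UMIs in the myofibroblasts.

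Fgfr4 was mainly an alveolar fibroblast transcript among recipient types. They had 269 CPM (255 to 283, 1442 UMIs) and held 91.3% of the gene's UMIs in kept recipient cells. Pericytes followed at 21.1 CPM (55 UMIs), 12.7-fold lower than alveolar fibroblasts (9.73 to 17.0), and myofibroblasts at 9.77, alveolar type 1 cells at 3.28, aerocytes at 2.91, general capillary cells at 2.63, adventitial fibroblasts at 1.88 and venous cells at 1.54 CPM. Lymphatic cells had no UMI. At equal depth 53.9% of alveolar fibroblasts had an Fgfr4 UMI, against 6.00% of pericytes, 1.10% of adventitial fibroblasts and 0.658% of aerocytes. Kept donor cells held 9 Fgfr4 UMIs in all.

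**Figure D2:**
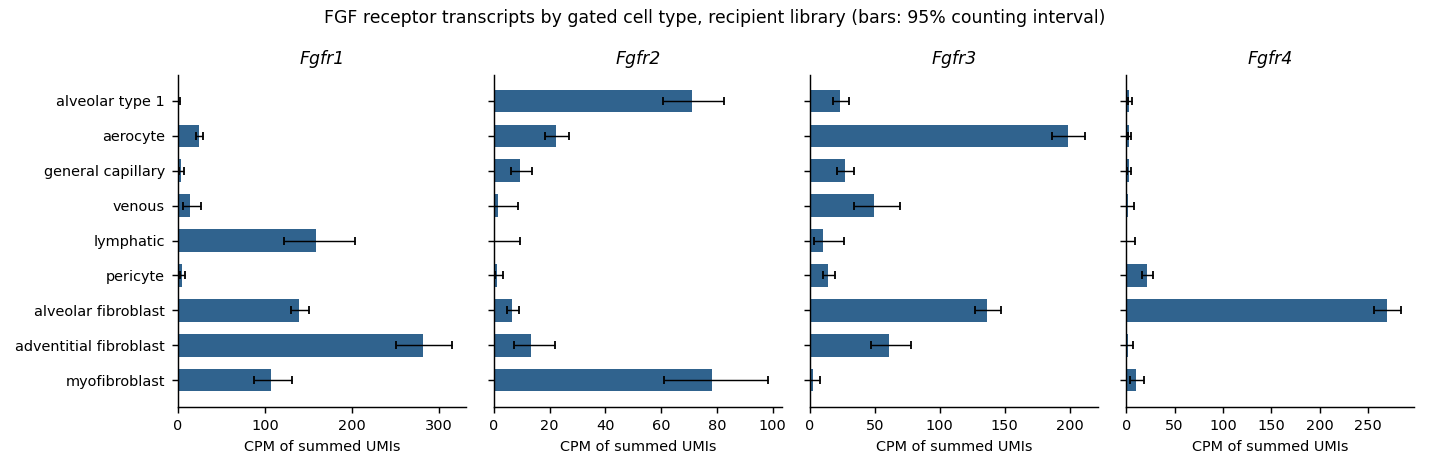
Level of each receptor in CPM of summed UMIs (x axis, linear, own scale per gene) by gated cell type of the recipient library, with exact Poisson 95% intervals as error bars. Fgfr1 is highest in adventitial fibroblasts at 281 CPM, Fgfr2 in myofibroblasts at 78.2 and alveolar type 1 cells at 71.0 CPM, Fgfr3 in aerocytes at 199 CPM and Fgfr4 in alveolar fibroblasts at 269 CPM.

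The 4 stromal types can be read side by side from the shares of cells at equal depth. Alveolar fibroblasts combined Fgf2, Fgf7 and Fgf10 with Fgfr1, Fgfr3 and Fgfr4, and 8 of their UMIs were Fgf18. Myofibroblasts combined Fgf2, Fgf7, Fgf10 and Fgf18 with Fgfr1 and Fgfr2. Fgf2 was seen in 15.0% of alveolar fibroblasts and 18.2% of myofibroblasts, and Fgf10 in 13.5% of alveolar fibroblasts and 11.7% of myofibroblasts. Fgfr2 was 12-fold (7.89 to 18.5) higher in myofibroblasts than in alveolar fibroblasts. Adventitial fibroblasts had the highest Fgfr1 share, 52.7% of 91 cells. Recipient pericytes, 450 of which reached 3000 UMIs, had no member above the 6.00% of Fgfr4. For 11 pairs of members, each in 1 type and library, the share of cells with one was compared between cells with and without the other, and in all 11 the intervals of both shares overlapped. Fgf7 was seen in 41.0% of alveolar fibroblasts with an Fgfr4 UMI (36.0% to 46.1%) and in 41.3% of those without (35.9% to 46.8%). Likewise Fgfr3 was seen in 46.1% of donor and 43.4% of recipient aerocytes with an Fgf1 UMI, and in 44.3% of donor and 44.8% of recipient aerocytes without. The widest gap was in myofibroblasts, where Fgfr2 was seen in 14.3% of cells with an Fgf18 UMI (7.35% to 24.1%) and in 21.7% of those without (12.1% to 34.2%). In alveolar fibroblasts Fgfr3 was seen in 29.6% of cells with an Fgfr4 UMI and 34.9% of those without, and Fgf7 in 37.1% of cells with an Fgf10 UMI and 41.7% of those without. These gene pairs were chosen after the levels were seen, and the overlap of their intervals does not show that the shares are equal.

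**Figure D3:**
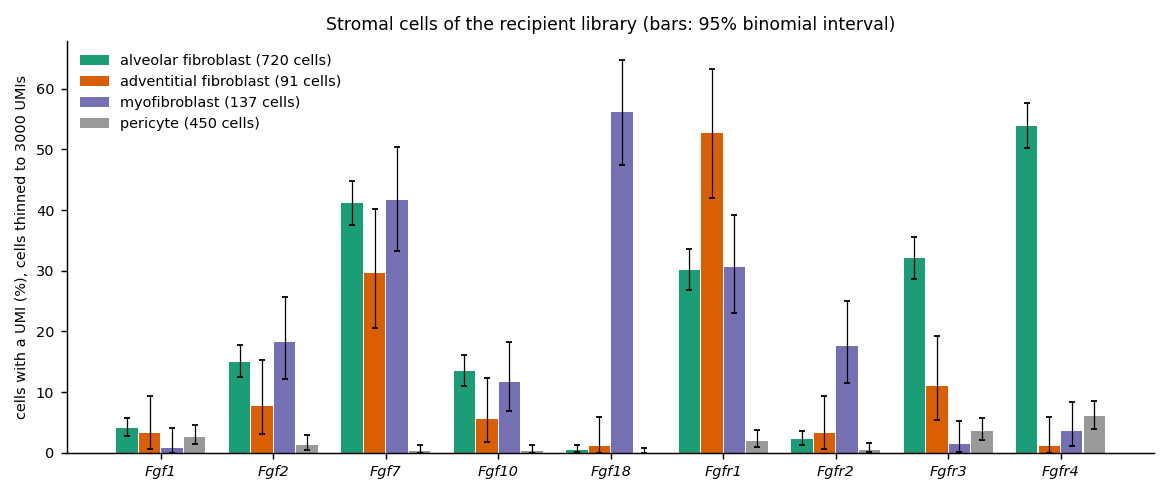
Share of cells with at least 1 UMI of each member (y axis, percent) in 4 stromal types of the recipient library, with exact binomial 95% intervals as error bars. Cells with at least 3000 UMIs were thinned to 3000 and cells with fewer were left out. Fgf18 is seen in 56.2% of myofibroblasts, Fgfr1 in 52.7% of adventitial fibroblasts and Fgfr4 in 53.9% of alveolar fibroblasts, while pericytes stay at or below 6.00% for every member.

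Donor and recipient cells were then compared within general capillary cells, aerocytes and venous cells, the 3 types with at least 50 cells in each library. Over all genes with at least 20 UMIs in both libraries together, 8.37% were at least 2-fold apart in general capillary cells, 4.49% in aerocytes and 6.16% in venous cells. Of the members with as many UMIs, 1 of 4 was 2-fold apart in general capillary cells, 0 of 4 in aerocytes and 0 of 1 in venous cells, too few to read as a share. In aerocytes Fgf1 was 291 CPM in donor and 299 CPM in recipient cells, a ratio of donor over recipient of 0.974 (0.917 to 1.03). Fgfr3 was 195 and 199 CPM, a ratio of 0.984 (0.914 to 1.06). Fgfr2 was 20.5 CPM in donor and 22.2 CPM in recipient aerocytes (0.921, 0.735 to 1.16), and Fgfr1 was 30.5 and 24.7 CPM (1.23, 1.0 to 1.53). These intervals cover counting error and not variation between animals.

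In general capillary cells Fgf1 was 35.9 CPM in donor and 34.5 CPM in recipient cells (1.04, 0.832 to 1.31). Fgfr3 was 34.9 CPM in donor and 26.6 CPM in recipient cells (1.31, 1.02 to 1.70), and Fgfr2 was 13.7 and 9.38 CPM (1.47, 0.965 to 2.32). Fgfr1 was the 1 member with 20 UMIs that was at least 2-fold apart in any of the 3 types, at 1.20 CPM in donor cells (18 UMIs) and 3.75 CPM in recipient cells (10 UMIs), a ratio of 0.319 (0.139 to 0.773). In venous cells Fgfr3 was 38.4 CPM in donor and 49.3 CPM in recipient cells (0.779, 0.439 to 1.36), the only member with 20 UMIs over both libraries. Of 10 further member values with fewer UMIs, 8 were at least 2-fold apart, and in 3 of them the interval did not hold 1. Those 3 were Fgfr4 in general capillary cells (2 donor and 7 recipient UMIs), Fgf2 in aerocytes (1 and 6 UMIs) and Fgfr4 in aerocytes (0 and 14 UMIs), all lower in donor cells. The same share over all genes with fewer UMIs was not counted, so 8 of 10 is not read as a member result.

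RNA of pan-mesenchymal markers, which fibroblasts and pericytes both carry, was also lower in donor capillary cells. The 6 pan-mesenchymal markers, all above 0, summed to 7.17 CPM in donor and 87.4 CPM in recipient general capillary cells, and to 5.80 CPM (5 markers above 0) in donor and 129 CPM (6 above 0) in recipient aerocytes. In aerocytes Fgfr1 itself was higher in donor cells, as given above. The part of mesenchymal RNA in the member values was not tested. When free RNA was subtracted by the median marker, Fgfr1 in general capillary cells was 0.275 CPM in donor and 1.92 CPM in recipient cells, a log2 ratio of -2.80, against -1.65 without subtraction. Without the 3 highest cells of each library its log2 ratio was -1.39. Both alternatives left it with fewer than 20 UMIs. By the median marker, Fgfr4 was 0.0686 CPM in donor and 0.645 CPM in recipient general capillary cells. In aerocytes Fgfr4 was then 0 CPM in donor and 1.18 CPM in recipient cells, and Fgf2 was 0.0363 and 0.795 CPM. When free RNA was subtracted by the summed markers of other lineages, a first estimate that took 52.1% of donor aerocyte UMIs as free, 2 other values passed 2-fold. Fgf1 in general capillary cells then had a log2 ratio of donor over recipient of -1.14, and Fgfr1 in aerocytes one of 1.29. Under it the ratios of Fgf1 and Fgfr3 in aerocytes were both 0.38, and that of Fgfr3 in general capillary cells was -0.11. Under the other alternatives, subtraction by the median marker included, Fgf1 and Fgfr3 in aerocytes stayed between -0.082 and -0.0078. Hopx was 1 of the markers in the summed estimate, and its part there was not tested.

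In alveolar type 1 cells 24 donor cells were too few for a ratio by the rule of 50 cells. Their median was 3670.5 UMIs, against 15189 in recipient cells. Blood cell markers summed to 857 CPM in donor and 7.39 CPM in recipient cells of this gate. Fgf1 was 518 CPM in donor (418 to 634) and 500 CPM in recipient cells (472 to 529). Fgf18 was 44.5 CPM in donor (19.2 to 87.7) and 59.9 CPM in recipient cells (50.6 to 70.5), and Fgfr2 was 66.8 CPM in donor (34.5 to 117) and 71.0 CPM in recipient cells (60.8 to 82.4). For these 3 genes the intervals of the libraries overlapped. Fgfr4 was 16.7 CPM in donor cells (3 UMIs, 3.44 to 48.8) and 3.28 CPM in recipient cells (8 UMIs, 1.42 to 6.47). Each level was outside the other's interval, but the intervals overlapped here as well. Of the donor cells in this gate 32 more were smaller copies of recipient barcodes. With these copies kept, the donor levels were 524 CPM for Fgf1, 57.7 for Fgf18 and 62.2 for Fgfr2 over 56 cells. Fgfr4 was then 13.3 CPM in donor cells (2.75 to 38.9), an interval that held the recipient level. Whether these copies hold donor or recipient molecules was not tested. Levels with the copies kept are therefore no separate check on donor cells.

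**Figure D4:**
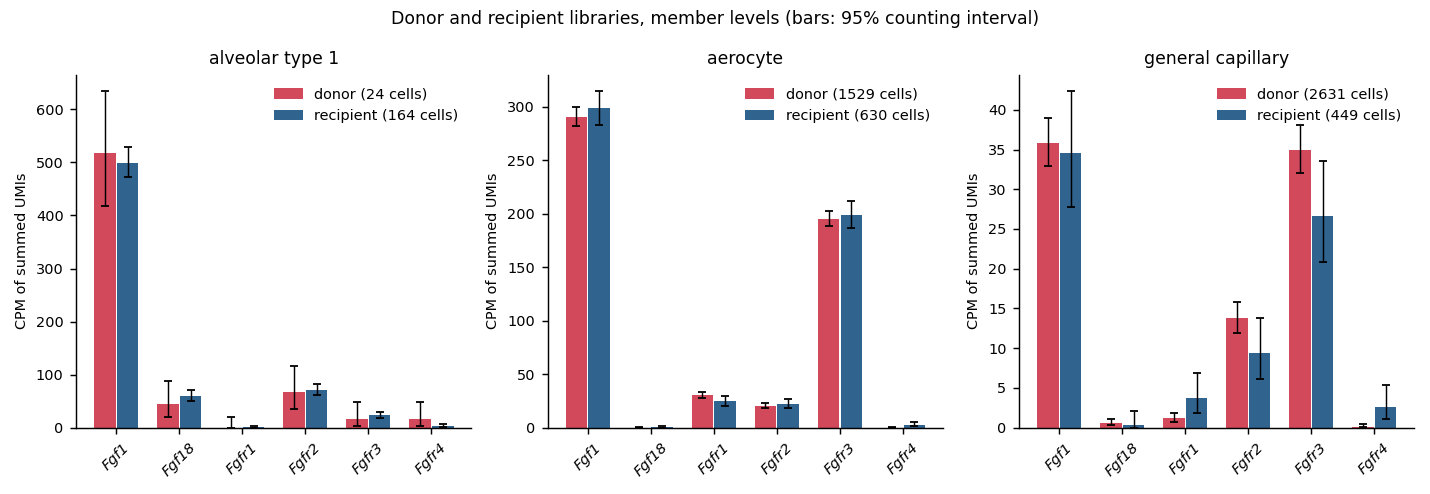
Levels of 6 members in CPM of summed UMIs (y axis, linear, own scale per panel) in donor (left bars) and recipient (right bars) alveolar type 1 cells, aerocytes and general capillary cells, with exact Poisson 95% intervals. In aerocytes Fgf1 is 291 CPM in donor and 299 CPM in recipient cells, and Fgfr1 in general capillary cells, at 1.20 and 3.75 CPM, is the only pair at least 2-fold apart with 20 UMIs.

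Fgf1 also varied a little among aerocytes. Cells with an Il1a UMI had 301 CPM of Fgf1 in the donor and 306 CPM in the recipient library, and cells with a Serpina3k or Serpina3m UMI had 309 and 332 CPM. Cells with neither had 250 CPM (234 to 266) in the donor and 256 CPM (230 to 283) in the recipient library. The groups overlap in cells and differ in depth, with medians of 9606 UMIs in donor and 8697 UMIs in recipient Il1a cells against 8065.5 and 6561 UMIs in cells with neither, and the part of depth was not tested.

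Beyond the 9 members, 80 other genes of the pathway were listed with earlier results of these data known. Of 17 other FGF ligands, 4 reached 10 CPM in a recipient type. The highest were Fgf12, an intracellular FGF homologue, at 27.7 CPM in lymphatic cells (11 UMIs), Fgf9 at 10.9 in myofibroblasts (10 UMIs) and Fgf13 at 10.1 in lymphatic cells (4 UMIs). Among co-receptors, Nrp1 led with 1775 CPM in donor and 2123 CPM in recipient aerocytes. Flrt3, which binds FGF receptors, was 484 CPM in donor and 609 CPM in recipient alveolar type 1 cells, and Cd44 was 200 CPM in recipient myofibroblasts.

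Of 13 listed genes of heparan sulfate synthesis and editing, 12 reached 10 CPM in a recipient type, and 4 of the 12 were highest in alveolar type 1 cells, beside 17.3% of all genes at that level. Ndst1, an N-deacetylase and N-sulfotransferase, was 1180 CPM in donor (1026 to 1350) and 1382 CPM in recipient alveolar type 1 cells (1336 to 1430), and Hs2st1, a 2-O-sulfotransferase, was 768 and 788 CPM. The next recipient type was venous for Ndst1, at 103 CPM, and alveolar fibroblast for Hs2st1, at 39.9 CPM. Hs3st1, a 3-O-sulfotransferase, was instead venous, at 473 CPM in donor and 540 CPM in recipient cells. Among the 10 proteoglycan cores that carry the chains, 3 were highest in alveolar type 1 cells, 3 in pericytes and 2 in adventitial fibroblasts. Over all genes at that level the shares were 17.3%, 14.4% and 7.50%, and 10 genes are too few to read as a share. Sdc2 was 984 CPM in donor and 980 CPM in recipient pericytes, Sdc4 was 882 CPM in recipient myofibroblasts and Gpc3 was 712 CPM in recipient adventitial fibroblasts.

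**Figure D5:**
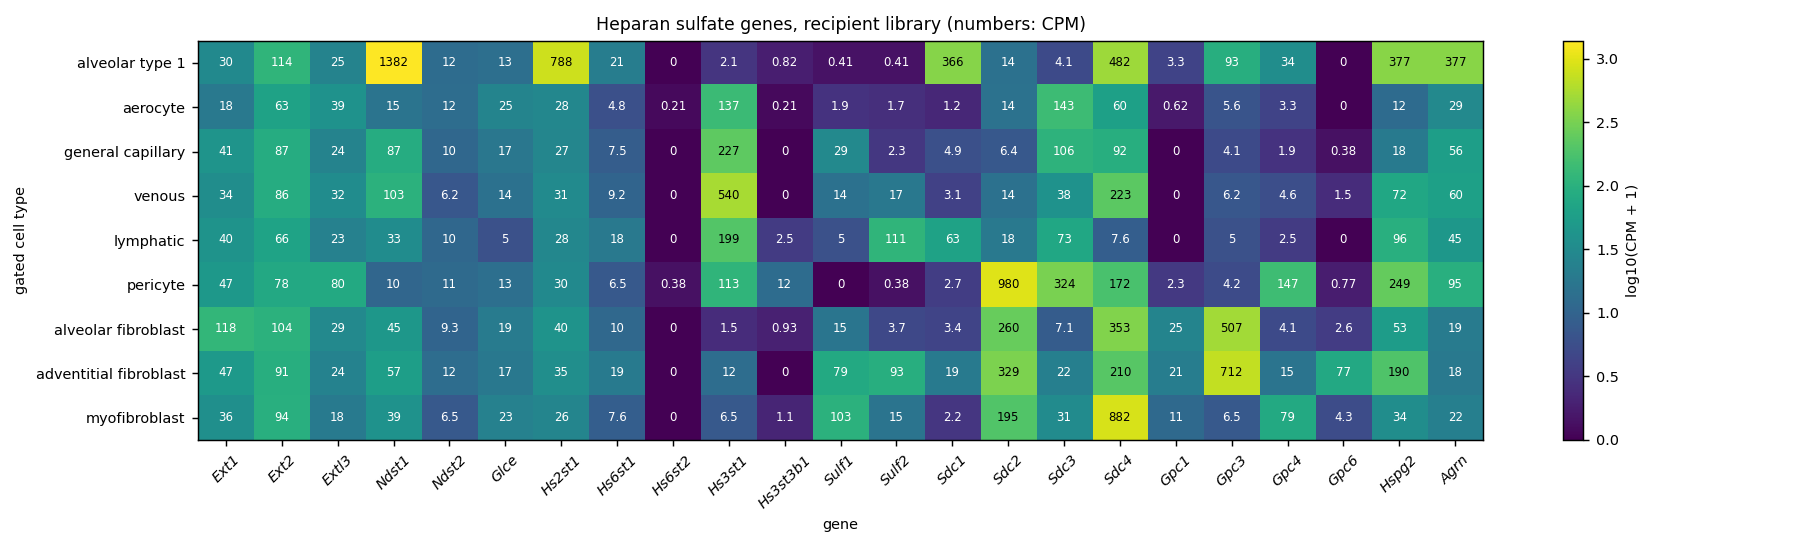
Levels in CPM (numbers) of 13 heparan sulfate synthesis and editing genes and 10 proteoglycan genes (x axis) by gated recipient type (y axis), coloured on a log10(CPM + 1) scale. Ndst1 at 1382 and Hs2st1 at 788 CPM peak in alveolar type 1 cells, Hs3st1 at 540 in venous cells, Sdc2 at 980 in pericytes, Sdc4 at 882 in myofibroblasts and Gpc3 at 712 in adventitial fibroblasts.

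Of the adaptors that relay the signal, Gab1 was 163 CPM in donor and 179 CPM in recipient pericytes, Shc1 was 106 CPM in recipient lymphatic cells, and Grb2 was 75.8 CPM in donor and 93.4 CPM in recipient general capillary cells. Of the targets and feedback inhibitors, Ier3 was 3276 CPM in donor and 4533 CPM in recipient venous cells, Egr1 was 4320 CPM in recipient myofibroblasts and Phlda1 was 978 CPM in donor and 1183 CPM in recipient pericytes. Ier3 and Egr1 also answer many other stimuli, tissue dissociation included. Of the 18 listed targets and inhibitors, 16 had 20 UMIs over both capillary types in each library. In both libraries 3 of the 16 were at least 2-fold higher in aerocytes, beside 5.77% of all genes, and 8 at least 2-fold higher in general capillary cells, beside 11% of all genes. This count was added after the levels were seen. Phlda1 was 513 CPM in donor and 432 CPM in recipient aerocytes, against 60.4 and 66.0 CPM in donor and recipient general capillary cells. Dusp6 was 342 CPM in donor and 348 CPM in recipient general capillary cells, against 89.7 and 89.0 CPM in donor and recipient aerocytes.

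Between the libraries, the pathway genes with 20 UMIs numbered 52 in general capillary cells, of which 0 were at least 2-fold higher and 5 at least 2-fold lower in donor cells. In aerocytes 0 of 50 were higher and 5 lower, and in venous cells 1 of 33 was higher and 3 lower. Over all genes 3.31% were higher and 5.05% lower in general capillary cells, 1.33% and 3.16% in aerocytes, and 2.85% and 3.31% in venous cells. The median log2 ratio of the listed genes was 0.051 in general capillary cells, -0.071 in aerocytes and -0.083 in venous cells, beside -0.0070, -0.023 and 0.043 over all genes. Hspg2, which encodes the basement membrane proteoglycan perlecan, was lower in donor cells in all 3 types: 4.71 CPM in donor and 18.4 CPM in recipient general capillary cells, 2.68 and 11.6 CPM in aerocytes, and 24.0 and 72.3 CPM in venous cells. Sdc2 was 2.10 CPM in donor and 14.1 CPM in recipient aerocytes. In venous cells Sdc4 was 76.8 CPM in donor and 223 CPM in recipient cells, Hs2st1 14.4 and 30.8 CPM, and Sos2, the 1 gene higher in donor cells, 43.2 and 16.9 CPM. Hs2st1 rested on 9 donor and 20 recipient UMIs, and its ratio of 0.467 (0.187 to 1.07) was within counting error. Pan-mesenchymal markers in venous cells summed to 9.59 CPM in donor and 142 CPM in recipient cells, and their part in these values was not tested.

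Genes whose levels followed each member most closely over the 9 recipient types were ranked by Pearson's r of log2(CPM + 1) among 11883 genes with at least 10 CPM in a type, gate markers left out. The 9 points share 1 library and differ in cell number, so r is a description. Fgf2 was most like Fgf7 (0.98), followed by Nr4a3 and Sod3 (both 0.97). Fgf7 was most like Ogn (0.99), Tmem132c (0.99) and Sod3 (0.98), and Fgf10 was most like Ogn (0.99), Tmem132c (0.99) and Ust (0.98). Fgf18 was most like Panx1 (0.93), P4ha3 (0.92) and Rfx2 (0.91). Fgf1 was most like Sec62, Cdipt and Tmem59 (0.96 each). Among the receptors, the closest genes were Gypc (0.97), Mr1 (0.97) and Zfp874a (0.95) for Fgfr1, and Tmem167b (0.94), Smim3 (0.92) and Col12a1 (0.92) for Fgfr2. They were H13 (0.96), Clec16a (0.89) and Gm46430 (0.88) for Fgfr3, and Fat3 (0.96), AI504432 (0.94) and Ift20 (0.93) for Fgfr4.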

How the data were processed

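The authors deposited 1 matrix per library of unnormalized UMI counts for each gene in each cell, on mm10, made with Cell Ranger 4.0.0 per the file headers and the submitters' processing notes and 3.0.1 per the labels' protocol. The members and gene lists were chosen with earlier results of these data known.

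Barcodes over 3 scaled median absolute deviations from their library's median genes, UMIs or mitochondrial share were left out (1332 donor, 473 recipient). Scrublet (scanpy 1.11.5) marked 1 donor barcode (0.0158%) and 133 recipient barcodes (3.51%) by its automatic threshold. Given the donor result, the highest scores of both libraries were removed instead at 0.8% per 1000 barcodes (319 donor, 115 recipient). For the recipient library this removed fewer than the automatic threshold marked. Of barcodes in both libraries, 736 donor and 80 recipient copies were dropped as the smaller. These sets overlap.

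A cell needed at least 3 pan-lineage markers, 2 more than for any other lineage, then at least 3 type markers and more than for any other type of its lineage. Pericytes, mesothelial, Schwann and blood cells not assigned in this way were taken by at least 4 of their own markers, with at most 2 pan-endothelial, pan-epithelial or pan-leukocyte markers. These limits were settled after 4 combinations of minimums had been tried, with marker counts and member levels already seen. All 4 gave the same highest recipient type for all 9 members. One lymphatic marker with several identifiers was not used.

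Named were all members, listed pathway genes at least 2-fold apart with 10 CPM in the higher library, the 3 highest genes of each list, and the 3 genes most like each member; others are said to be chosen after their values were seen. Ratios of CPM carry exact conditional 95% intervals and shares exact Clopper-Pearson intervals, in Python 3.11.15 with scipy 1.17.1. These cover counting error only. Each group is 1 library, so differences were not tested and carry no p-value. The ratio calculation was tested on simulated data. Alternatives changed the cell filter, doublets, shared barcodes, marker minimums, scaling, UMI minimum, highest cells and free RNA. The free RNA estimate from summed markers was run first, and the median marker replaced it after the summed output had been seen. A count of 0 was given a floor of 3 counts over the group.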

Additional observations from a re-analysis of the deposited data

How the results depend on the processing

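No paired analysis was possible because each group is 1 library of pooled lungs. The count of members at least 2-fold apart between donor and recipient cells, 1 in all, became 0 with a minimum of 100 UMIs, 9 with no minimum, 2 with doublets kept, 0 with free RNA subtracted by the median marker and 0 without the 3 highest cells. In the last 2 the lost member, Fgfr1 in general capillary cells, fell under 20 UMIs with log2 ratios of -2.80 and -1.39, so the call ended by the minimum and not by a smaller fold than 2. The count of pathway genes, 14 in all, became 2 with a minimum of 100 UMIs, 23 with no minimum, 8 with free RNA subtracted by the median marker and 9 without the 3 highest cells. A free RNA estimate from summed markers was run first; it took 52.1% of donor and 15.3% of recipient aerocyte UMIs as free, and it was replaced by the median marker, which gave 5.37% and 2.68%, only after its output had been seen. It gave 2 members and 13 pathway genes, so these counts depend on that choice. The highest recipient type stayed the same for all 9 members except Fgfr2, which without the 3 highest cells was 65.9 CPM in alveolar type 1 cells and 62.5 CPM in myofibroblasts. In the donor library it changed for Fgf2, Fgf7 or Fgf10 under some settings. Of the single values, 194 of 216 levels and 102 of 107 log2 ratios stayed within their counting intervals, and the 5 ratios that left them did so under summed markers. Depth limits the members under 20 UMIs and all donor fibroblast levels.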

Other observations

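Of the listed proteoglycans, 3 of 10 were highest in recipient alveolar type 1 cells, beside 17.3% of all genes, too few to read as a share. Agrn and Hspg2, which encode basement membrane proteoglycans, were 367 and 412 CPM in donor alveolar type 1 cells and both 377 CPM in recipient ones. Sdc1, a syndecan core protein, was 278 CPM in donor and 366 CPM in recipient alveolar type 1 cells, and the next recipient type was lymphatic cells at 63.0 CPM. Fgfrl1, a receptor without a kinase domain, was 128 CPM in donor and 115 CPM in recipient alveolar type 1 cells, and 26.1 CPM in donor and 25.4 CPM in recipient pericytes. Fgfbp1, which encodes a carrier protein of FGFs, was 5.57 CPM (1 UMI) in donor and 27.1 CPM in recipient alveolar type 1 cells, with 2.52 CPM or less in every other recipient type. Ncam1, a cell adhesion molecule that binds FGF receptors, was 109 CPM in donor and 101 CPM in recipient aerocytes, and 49.6 CPM in donor and 73.9 CPM in recipient venous cells. Spry1, an inhibitor induced by FGF and other signals, was 306 CPM in donor and 259 CPM in recipient alveolar type 1 cells, and 355 CPM in recipient myofibroblasts. These genes were chosen after their values were seen.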
